A study of Macaca fascicularis with 5 samples.

Results

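The genes described here mark the choroid plexus and the ependyma. They are 10 genes, TTR, FOLR1, AQP1, CLIC6, KL, SLC4A5, PRLR, KCNJ13, OTX2 and FOXJ1, of 20576 gene symbols in the deposited table, and each was found by its symbol, with the counts of all its transcripts summed. Members were taken by gene name, with earlier results of these data known. TTR through OTX2 in that order stand for the choroid plexus epithelium (9 genes) and FOXJ1 for the ependyma (1 gene).

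The choroid plexus is a folded epithelium that hangs in the brain ventricles and secretes cerebrospinal fluid. Its cells pump bicarbonate, sodium and chloride, let water follow through channels, and export carrier proteins, above all transthyretin. The ependyma is the ciliated layer that lines the ventricle wall. Neither belongs to the grey matter of the dorsal lateral geniculate nucleus (dLGN), the thalamic relay of the visual pathway, although the choroid plexus of the lateral ventricle lies near that part of the thalamus.

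RNA was sequenced from the dLGN of 5 cynomolgus monkeys (Macaca fascicularis), with 1 library per animal and an age given as 3 months. The deprived group (Deprivated-316 and Deprivated-326) had the left eye sutured closed, by the labels between 1 and 3 months of age, and only the left dLGN, on the side of the sutured eye, was sequenced, since RNA of the right side was of low quality. The control group (Control-307, Control-317 and Control-331) was untreated. Control titles name 1 side each (left for Control-317, right for Control-307 and Control-331), whereas their descriptions state that both sides were combined. The published methods place collection 3 months after the suture, which does not match the labelled age. Values of a group follow in the order of the animal numbers (Deprivated-316 before Deprivated-326, and Control-307 before Control-317 and Control-331).

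Libraries held 7607859 and 7391844 estimated counts in the deprived group and 9424975 to 12966019 in the control group. Control-317 stood apart. Across 14319 genes, which are not independent replicates, the correlation of its log2 counts was r = 0.849 with Control-307 and 0.872 with Control-331, against 0.945 between both deprived libraries and 0.952 between the other two controls. With Deprivated-316 and Deprivated-326 it was 0.873 and 0.899. Deprivated-316 had r = 0.888 with Control-307 and 0.897 with Control-331, and Deprivated-326 had 0.904 and 0.914. The labelled tissue was uneven too. Summed over 10 markers, thalamic relay neurons had 595 and 1085 CPM (counts scaled to a common, normalized library size) in the deprived libraries, against 175.5, 1882 and 287 CPM in the controls. These markers did not all go together. In Control-317, 7 of the 10 were highest and 2 (PRKCD and LHX2) lowest. SLC17A7 had 44.0 and 13.65 CPM in the deprived libraries, against 0, 0 and 2.39 CPM in the controls. The sum over 10 striatal markers was 2059 and 1697 CPM in the deprived libraries against 7209, 493 and 6569 CPM in the controls, and all 10 were lowest in Control-317. Of the 7 tested markers of cortical and hippocampal excitatory neurons, 5 were higher in both deprived libraries than in every control, against 15.2% of all genes. NRGN and PROX1, the most abundant on that list, overlapped between the groups. NRGN had 138 and 86.3 CPM in the deprived libraries, against 108, 31.5 and 181 CPM in the controls. The sum over the 8 genes of the list was 508 and 363.5 CPM in the deprived libraries, against 187, 178 and 257 CPM in the controls. TBR1 had 98.4 and 49.96 CPM in the deprived libraries, against 2.48, 0.400 and 1.34 CPM in the controls. Of the 7 tested, 6 had a positive log2 fold change (median 4.49, against -0.06 over all genes). Of them 0 were called by edgeR's quasi-likelihood test (0.0% of all genes). At an unadjusted p under 0.05 there were 5 (9.7% of all genes), and DESeq2 called 4 (2.12% of all genes). Of 5 oligodendrocyte markers, 5 had a negative log2 fold change (median -0.48), against 55.1% of all genes. By edgeR or DESeq2 0 were called, and 1 (MOG) had an unadjusted p under 0.05 in edgeR, against 9.7% of all genes. The part of these tissue differences in the results was not tested. The group means that the study printed for 310 transcripts were matched for 310 with Control-317 and Deprivated-316 exchanged, and for 20 with the labelled groups. Which division of the libraries is right could not be settled from the files, and values are therefore also given without Control-317 and with Control-317 and Deprivated-316 exchanged.

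Most choroid plexus genes were counted in all libraries, and all but SLC4A5 were far more abundant in Control-317 than in any other. TTR, which encodes the carrier of thyroxine and of retinol-binding protein and is the leading product of the choroid plexus, had 14.9 and 48.9 CPM in Deprivated-316 and Deprivated-326, against 68.0, 1027 and 119 CPM in the controls. Both deprived libraries lay below every control library, and Control-317 lay 8.64-fold above the next. As a share of all counts TTR took 0.00146% (Wilson 95% interval 0.00121 to 0.00176) of Deprivated-316 and 0.00484% (0.00437 to 0.00537) of Deprivated-326. In Control-307 the share was 0.00697% (0.00646 to 0.00753), in Control-317 0.0990% (0.0973 to 0.101) and in Control-331 0.0123% (0.0117 to 0.0130). None of the 5 intervals overlapped another, but they cover only the error of counting in each library, as no molecular identifiers are described, and do not compare animals. Ranked by FPKM, which allows for transcript length, TTR was number 2503 and 502 among the genes of the deprived libraries, and number 362, 3 and 183 among those of the controls. In a bulk sample, more cells of a type and more RNA per cell cannot be told apart.

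**Figure D1:**
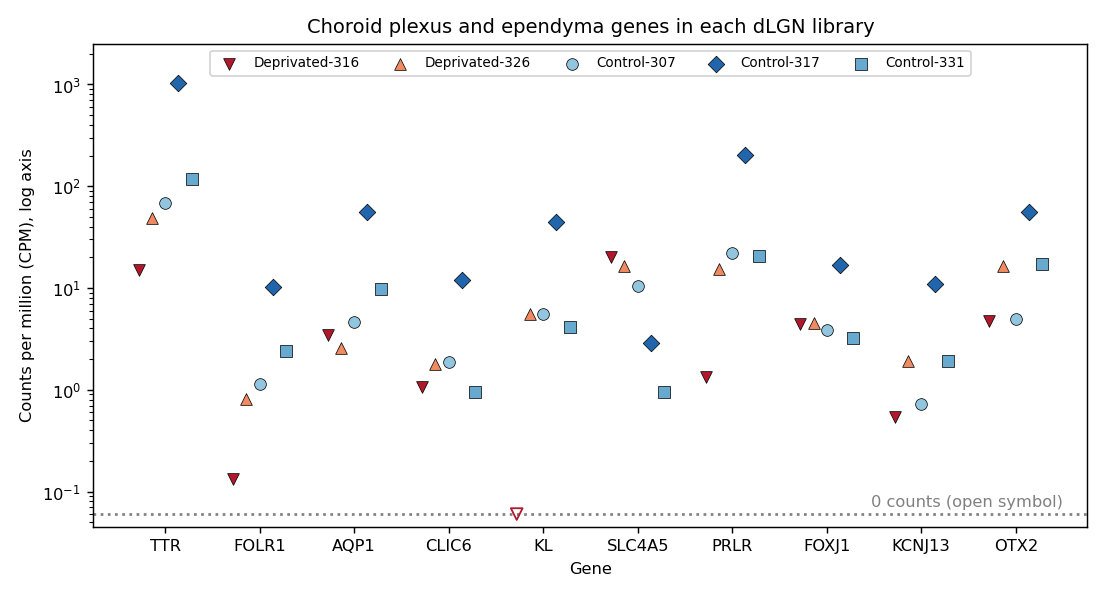
CPM of each of the 10 genes in each library, on a log axis, with both deprived libraries in red to the left of the 3 control libraries in blue. Control-317 (diamonds) is the highest library for all genes but SLC4A5, and the open triangle marks the count of 0 for KL in Deprivated-316.

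Secretion of fluid and uptake of folate are represented by AQP1, CLIC6, KCNJ13, SLC4A5 and FOLR1. AQP1, the water channel of the apical membrane, had 3.49 and 2.59 CPM in the deprived libraries, against 4.66, 56.3 and 9.85 CPM in the controls. FOLR1, the receptor that carries folate across the epithelium, had 0.134 and 0.819 CPM in the deprived libraries, against 1.14, 10.3 and 2.39 CPM in the controls. For both genes the groups did not overlap, although FOLR1 rested on 1 and 6 counts in the deprived libraries. KCNJ13, an inwardly rectifying potassium channel, had 0.536 and 1.91 CPM in the deprived libraries, against 0.725, 11.04 and 1.91 CPM in the controls. CLIC6, of the family of intracellular chloride channels, had 1.07 and 1.775 CPM in the deprived libraries, against 1.86, 12.002 and 0.957 CPM in the controls. The groups of KCNJ13 and CLIC6 overlapped, and apart from Control-317 no library exceeded 1.91 CPM for either gene.

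SLC4A5, a sodium bicarbonate cotransporter of the apical membrane, went the other way. It had 20.4 and 16.4 CPM in Deprivated-316 and Deprivated-326, against 10.6, 2.88 and 0.957 CPM in the controls. The groups did not overlap, and Deprivated-316, which was lowest for TTR, was highest for SLC4A5.

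Hormone signalling is represented by PRLR and KL. PRLR, the prolactin receptor, had 1.34 and 15.3 CPM in the deprived libraries, against 22.25, 202 and 20.9 CPM in the controls. Its groups did not overlap, and Deprivated-316 lay far below the rest. KL, or klotho, a co-receptor for FGF23 known from the kidney and the choroid plexus, was at 0 counts in Deprivated-316, which allows up to 0.402 CPM by a limit of 3 counts. It had 5.60 CPM in Deprivated-326 and 5.59, 44.7 and 4.11 CPM in the controls, so that Deprivated-326 lay among the controls.

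Gene regulation is represented by OTX2 and FOXJ1. OTX2, a homeobox factor that the mouse choroid plexus needs to form, had 4.69 and 16.4 CPM in the deprived libraries, against 4.97, 55.8 and 17.2 CPM in the controls. The deprived libraries thus lay at the levels of Control-307 and Control-331. FOXJ1, the factor that switches on genes of motile cilia, had 4.425 and 4.505 CPM in the deprived libraries, against 3.83, 16.8 and 3.25 CPM in the controls. Apart from Control-317, FOXJ1 kept between 3.25 and 4.505 CPM.

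In all, 9 of the 10 genes were highest in Control-317, which held for 30.4% of the 14319 genes tested. In Control-317 7 of 10 reached at least 4 times the next library, against 0.356% of genes, and 9 of 10 at least 3 times, against 0.775%. Deprivated-316 was the lowest library for 6 of 10, against 21.6% of genes. These counts describe single libraries and were not tested. Per length, TTR was by far the most abundant of the 10, with 1331 FPKM in Control-317, followed there by PRLR with 18.5, OTX2 with 14.8, AQP1 with 11.5, FOLR1 with 6.62 and KL with 5.63 FPKM. The levels of FOXJ1, KCNJ13, CLIC6 and SLC4A5 in Control-317 were 3.93, 2.36, 1.72 and 0.28 FPKM. In Deprivated-316, where TTR had 18.4 FPKM, the next was SLC4A5 with 1.96 FPKM and no other of the genes exceeded 1.09 FPKM.

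Counts were also set against those of TTR in the same library. FOLR1 had 0.901 (exact 95% counting interval 0.0226 to 5.12, from 1 count) and 1.68 counts per 100 counts of TTR in the deprived libraries, against 1.67, 1.01 and 2.01 in the controls, a span of 2.23-fold over libraries in which TTR itself spanned 69.0-fold in CPM. KCNJ13 spanned 3.67-fold (1.07 to 3.91 per 100), with 3.60 (0.965 to 9.49, from 4 counts) in Deprivated-316. PRLR spanned 3.63-fold, and its intervals in Deprivated-316 (4.20 to 17.2) and Deprivated-326 (25.1 to 38.8) did not overlap. At these counts the spans of the genes were not ranked.

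AQP1 had 5.31 per 100 in Deprivated-326 and 6.85, 5.48 and 8.29 in the controls, but 23.4 (14.7 to 36.2) in Deprivated-316. OTX2 had 31.5 (20.9 to 46.5) and 33.5 (27.0 to 41.3) per 100 in the deprived libraries, against 7.31 (5.33 to 9.80), 5.43 (5.03 to 5.86) and 14.5 (12.3 to 16.9) in the controls. Both deprived libraries thus held more OTX2 for their TTR than any control library did. TTR itself was lower in both than in every control, and the CPM of OTX2 overlapped between the groups. The ratio alone therefore cannot tell a difference in OTX2 from one in TTR, and the same holds for FOXJ1 and SLC4A5. For FOXJ1 the ratio was 29.7 and 9.22 in the deprived libraries, against 5.63, 1.64 and 2.74 in the controls. For SLC4A5 it was 137 and 33.5 in the deprived libraries, against 15.5, 0.281 and 0.805 in the controls, a span of 488-fold. CLIC6 spanned 8.96-fold, and KL, absent from the counts of Deprivated-316, reached 11.45 per 100 in Deprivated-326 against 8.22, 4.36 and 3.46 in the controls.

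**Figure D2:**
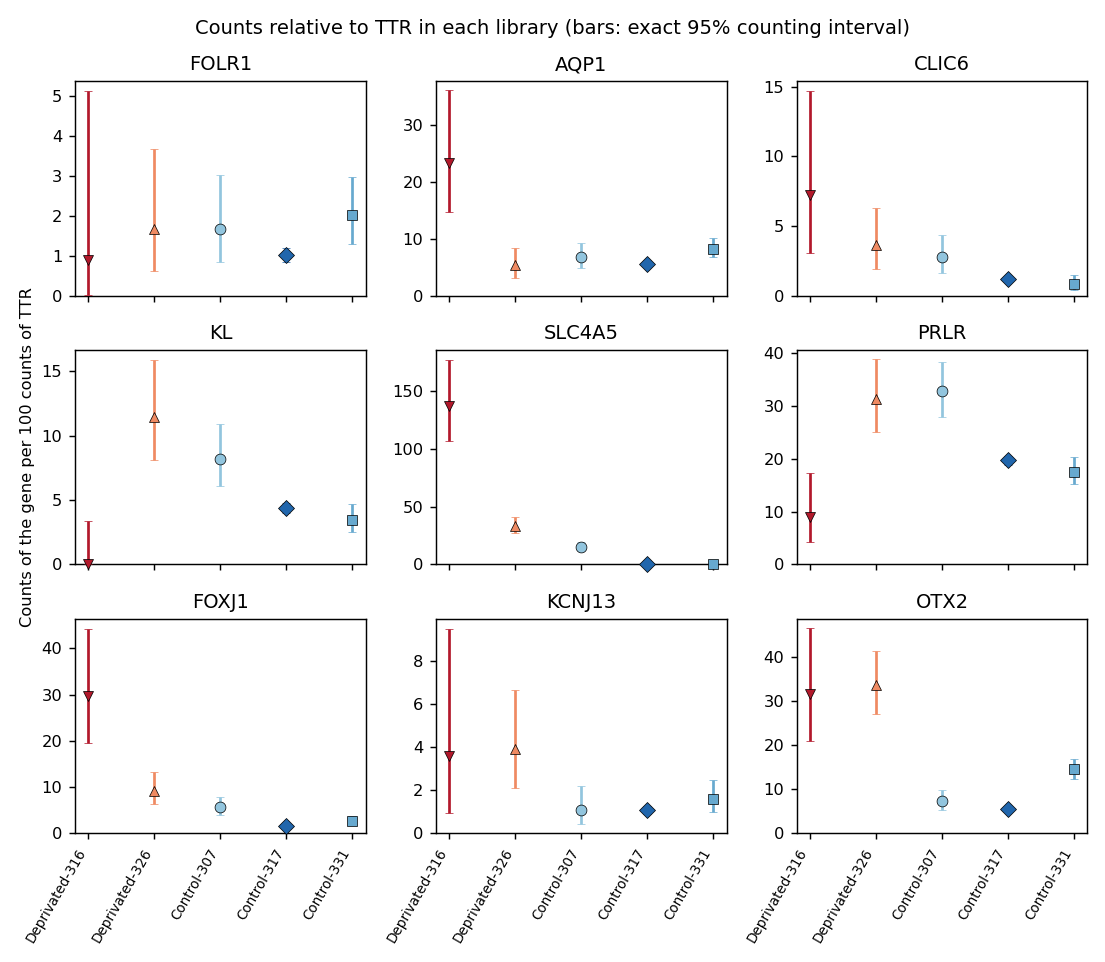
Counts of each gene per 100 counts of TTR in the same library, on linear axes from 0, with exact binomial 95% intervals that cover counting error only. FOLR1 stays between 0.901 and 2.01, whereas SLC4A5 ranges from 0.281 in Control-317 to 137 in Deprivated-316.

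The genes have 34 RefSeq transcripts in the table, of which 6 were at 0 in every library and 17 could be tested. Counts are split between variants by StringTie's estimate, so that variants which share exons are uncertain. TTR, CLIC6 and KL have a single transcript each. In PRLR the variant X1 had 0 and 106 counts in the deprived libraries, against 206, 2012 and 201 in the controls. All 10 PRLR counts of Deprivated-316 were assigned to variant X2, which had 4 to 10 counts in every library, and variant X4 reached 478 counts in Control-317 but at most 11 elsewhere. The gap between Deprivated-316 and the other libraries thus lay in variant X1.

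FOXJ1 was split in a like way. Its variant X1 had 0 and 7 counts in the deprived libraries, against 18, 176 and 16 in the controls, whereas variant X2 had 33 and 26 counts in the deprived libraries, against 19, 34 and 18 in the controls. Variant X1 made up 83.8% of FOXJ1 in Control-317 and 0% of it in Deprivated-316, and the high FOXJ1 total of Control-317 lay in X1. KCNJ13 variant X1 had 0 counts in both deprived libraries and in Control-307, 88 in Control-317 and 12 in Control-331. Its variant X2 had 4 and 14 counts in the deprived libraries, against 7, 50 and 8 in the controls. KCNJ13 overlaps GIGYF2 in the RefSeq annotation of a later assembly, and strand-specific counting is not stated, so reads of these genes may not be separated. In the same annotation PRLR and OTX2 overlap long noncoding RNAs and SLC4A5 a pseudogene, and their counts carry the same doubt.

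Outside Deprivated-316, OTX2 was mostly variant X8, which had 18 and 87 counts in the deprived libraries, against 48, 605 and 132 in the controls. Its variant X7 had 17 and 22 counts in the deprived libraries, against 0, 0 and 23 in the controls. In Deprivated-316 the counts were thus split nearly evenly between X8 and X7. SLC4A5 showed no leading variant. Deprivated-316 spread its 152 counts over X5 (65), X3 (33), X4 (30) and X8 (24), while Control-307 had all 102 in X8 and Control-317 all 36 in X3. FOLR1 was assigned to X1 alone in Control-307 and to X2 alone in Control-331 and both deprived libraries, while Control-317 had 39 counts in X1 and 90 in X2. AQP1 was mostly X1, with 18 and 19 counts in the deprived libraries, against 45, 703 and 76 in the controls.

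**Figure D3:**
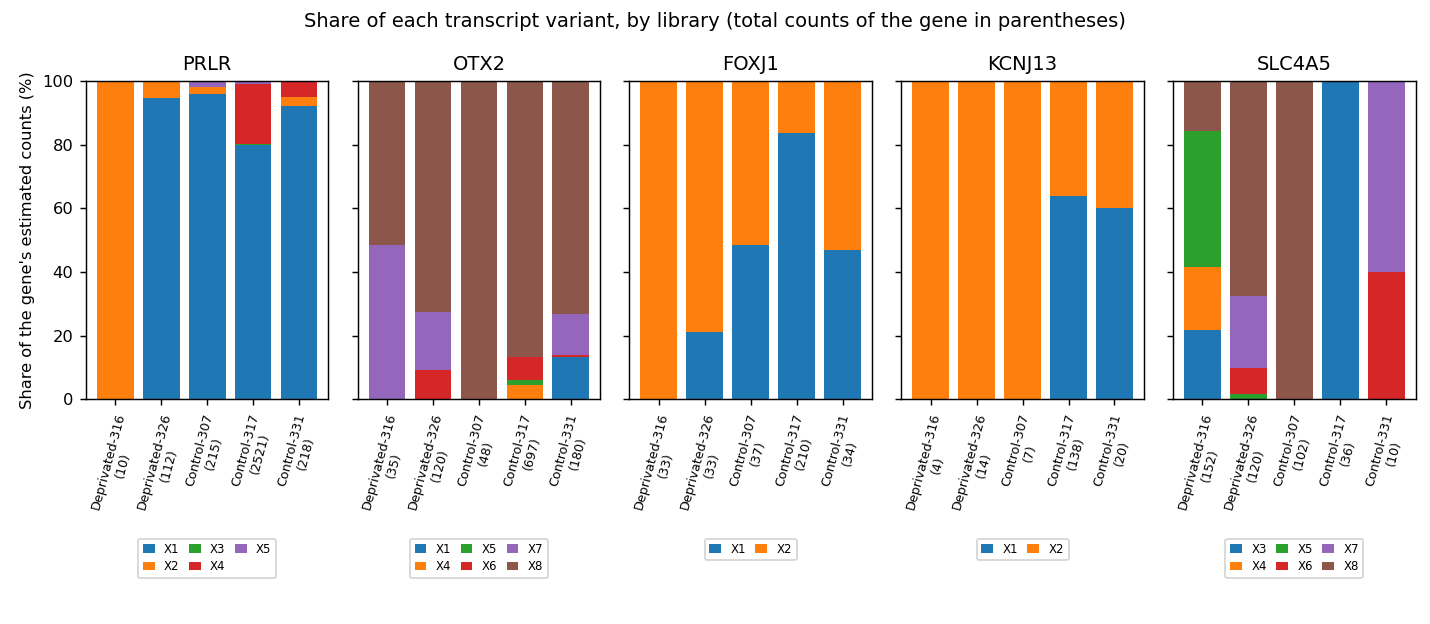
Share of each transcript variant in the estimated counts of 5 genes, by library, with both deprived libraries left of the controls and the gene's total counts in parentheses. Variant X1 of FOXJ1 makes up 83.8% in Control-317 and 0% in Deprivated-316, and the leading variant of SLC4A5 is X5, X8, X8, X3 and X7 from left to right.

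Suture of the eye was then compared with no treatment across the groups. Rounded counts summed by gene were tested with edgeR's quasi-likelihood test after a filter on low counts that 10 of the 10 genes passed. No gene of the 14319 tested had an adjusted p under 0.05 (0.0% called), and 0 of the 10 did. At an unadjusted p under 0.05 the counts were 1389 of all genes (9.7%) and 0 of the 10. Log2 fold changes, deprived over control, were negative for 9 of the 10, against 55.1% of all genes, and their median was -2.30 against -0.06 for all genes. The groups did not overlap with the deprived one lower for 4 of 10 (TTR, FOLR1, AQP1 and PRLR), against 15.5% of genes, and higher for 1 (SLC4A5), against 15.2%.

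The largest fitted value was that of TTR, with a mean of 31.9 ± 24.0 CPM (SD, n = 2) in the deprived and 405 ± 540 CPM (SD, n = 3) in the control libraries, and a difference of -3.67 on the log2 scale (standard error 1.47; adjusted p = 0.515 in edgeR). The SD of the control group exceeded its mean. The log2 fold change of PRLR was -3.30 (standard error 1.56), that of FOLR1 -3.25 (1.34), of AQP1 -2.95 (1.21) and of KL -2.70 (1.77). Those of KCNJ13, CLIC6, OTX2 and FOXJ1 were -1.90, -1.79, -1.30 and -0.84, and that of SLC4A5 was 1.94 (standard error 0.91). Adjusted p-values of the 10 in edgeR ran from 0.515 to 0.784. Over transcripts the test called 0 of 33469 (0.0%), and 2145 (6.41%) had an unadjusted p under 0.05, none of them among the 17 transcripts of these genes. Over transcripts DESeq2 called 1039 (3.04%), none of them among the 17, and the exact test called 464 (1.39%).

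DESeq2 called TTR alone of the 10 (log2 fold change -3.66, adjusted p = 0.0360), where it called 325 of 15362 genes (2.12%), 0.436% as lower. The exact test of edgeR called 0 of the 10 and 226 genes (1.58%), and limma on log2(FPKM + 1) called 0 of the 10 and 1 gene.

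Single libraries moved these values, Control-317 most of them. Without Control-317 the log2 fold change of TTR was -1.55 (standard error 0.587; adjusted p = 0.147 in edgeR), that of AQP1 -1.25 (adjusted p = 0.161) and that of PRLR -1.37 (adjusted p = 0.354). KL had -0.79, KCNJ13 -0.11 and OTX2 -0.08, while CLIC6 and FOXJ1 turned to 0.02 and 0.34, and FOLR1 no longer passed the filter on low counts. SLC4A5, at 1.68 (adjusted p = 0.279), moved little. None of the 9 genes tested was called, where 10.1% of all genes were, and 6 of 9 were negative, against 52.1% of all genes, with a median of -0.11 against -0.03. Without Control-317 the deprived libraries are titled as left and the control libraries as right, so that side and deprivation cannot be told apart.

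Other libraries moved the values as well, with 0 of the 10 called in each case. Without Deprivated-326 the log2 fold change of TTR was -4.76, that of PRLR -5.91, of FOLR1 -4.98, of KCNJ13 -3.06 and of OTX2 -2.46, while KL then had no count in the deprived group, so that its fitted value (-10.51) depends on the prior count and is no bound. Without Deprivated-316 TTR had -3.05, PRLR -2.42, FOLR1 -2.48, KL -1.70, KCNJ13 -1.25 and OTX2 -0.67. Without Control-307 SLC4A5 had 3.24.

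With the side in the title as a term in edgeR, the contrast is of both deprived libraries with 1 library, Control-317, as the only left control, and this library is assumed to vary like the others. In that contrast the log2 fold change of TTR was -5.01 (adjusted p = 0.0379), that of AQP1 -4.20 (adjusted p = 0.0344) and that of FOXJ1 -1.91 (adjusted p = 0.0494). Of the 10, 3 were thus under 0.05, where 5.36% of all genes were and 1.42% were with a negative value, but the values compare the deprived libraries with the library that stood apart and are no replicated test of deprivation. With Control-317 and Deprivated-316 exchanged, all 10 changed sign. TTR had 3.00, KL 2.94 and PRLR 2.87, KCNJ13, CLIC6, AQP1, FOLR1 and OTX2 between 2 and 2.59, FOXJ1 1.48 and SLC4A5 -0.15, so that 1 of 10 was negative, against 51.0% of all genes, with a median of 2.35 against -0.01, and 0 of the 10 and 0 of all genes (0.0%) were called. Control-317 was the highest library for 9 of the 10 and Deprivated-316 the lowest for 6, so this exchange moves the signs largely by construction. SLC4A5, at -0.15, had a standard error of 1.20. The sign thus depended on which of these divisions was used. Under the deposited labels, 9 of 10 stayed negative without Deprivated-316, and 6 of 9 without Control-317.

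**Figure D4:**
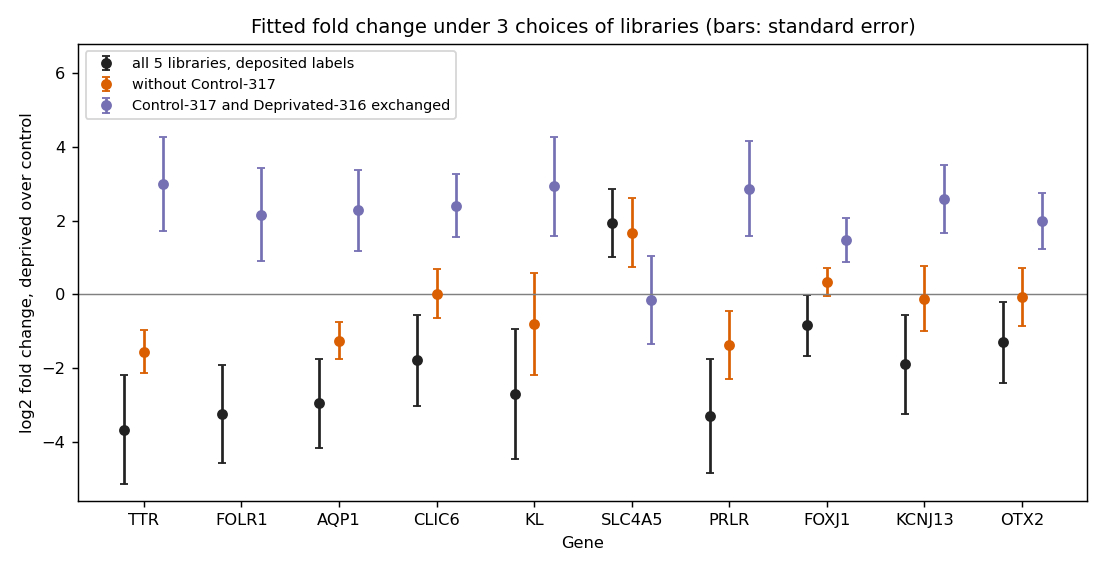
Log2 fold change with its standard error for each gene, deprived over control, in edgeR's fit of all 5 libraries by their labels (black), without Control-317 (orange) and with Control-317 and Deprivated-316 exchanged (purple). TTR has -3.67, -1.55 and 3.00 in the 3 fits; FOLR1 has no orange point since it failed the filter on low counts.

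Further genes of the choroid plexus were taken as a list of 38, of which 36 were in the table and 28 were tested. By edgeR 0 were called, 22 had a negative and 6 a positive log2 fold change (median -0.31), against 55.1% negative and a median of -0.06 over all genes, and 4 (CLDN2, TRPV4, COL9A3 and SLC29A4) had an unadjusted p under 0.05, against 9.7% of all genes. Of the 28, 20 were highest in Control-317 (30.4% of all genes), and 5 reached at least 4 times the next library (0.356% of all genes). CLDN2, a claudin that forms cation and water pores in the tight junctions of this epithelium, had 0.268 and 0.683 CPM in the deprived libraries, against 2.38, 29.8 and 2.30 CPM in the controls (log2 fold change -4.56, edgeR adjusted p = 0.488; adjusted p = 0.0343 in DESeq2). SLC13A4, a sulfate transporter, had 3.08 and 7.64 CPM in the deprived libraries, against 6.42, 79.5 and 8.32 CPM in the controls. CLDN2 and SLC13A4 were thus high in Control-317 alone, and so were WFIKKN2, TMEM72 and HTR2C, a serotonin receptor of the choroid plexus, with 90.0, 8.72 and 69.1 CPM there and at most 10.6, 1.63 and 14.3 CPM elsewhere.

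TRPV4, a calcium-permeable channel, was at 0 in both deprived libraries and at 1.76, 2.56 and 0.67 CPM in the controls. Pooled over the controls it lay 8.46-fold above a floor of 3 counts over both deprived libraries. That fold covers counting error only and not the spread between animals. TRPV4 was not called (adjusted p = 0.386 in edgeR and 0.0708 in DESeq2). The 4 most abundant genes of the list stood out less in Control-317 than CLDN2 or SLC13A4 did. Of them SLC4A10 and ENPP2 were highest there, at 1.05 and 1.93 times the next library. What neurons and glia add to their levels was not tested. SLC4A10, a bicarbonate exchanger also of neurons, had 298 and 266 CPM in the deprived libraries, against 82.1, 312 and 108 CPM in the controls. CA12, a carbonic anhydrase, had 72.8 and 49.96 CPM in the deprived libraries, against 184, 59.9 and 189 CPM in the controls, and ENPP2, which makes lysophosphatidic acid, 126 and 153 CPM against 128, 295 and 104 CPM. CAB39L had 117 and 86.7 CPM in the deprived libraries, against 48.8, 92.7 and 43.8 CPM in the controls. Without Control-317 the list had 13 positive and 10 negative values (median 0.04), and edgeR called SLC4A10, SLC29A4 and CAB39L as higher and CA12 as lower, 4 of 23 tested, against 10.1% of all genes in that fit.

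Cilia of the ependyma were described in the same way. Of a list of 44 genes of motile cilia and ependyma, 43 were in the table and 27 were tested, with 0 called by edgeR or DESeq2, 17 negative and 10 positive (median -0.60, against -0.06 and 55.1% negative over all genes), and 4 with an unadjusted p under 0.05 (9.7% of all genes), PIFO (log2 fold change -1.92), IQCG (-0.86), SPAG6 (1.64) and RFX3 (0.80). In Control-317, 8 of the 27 were highest, a share near the 30.4% of all genes, 7 were lowest, against 29.6% of all genes, and none reached 4 times the next library. The difference between this list and that of the choroid plexus was not tested. DNAH9, a heavy chain of the dynein arms that bend cilia, had 47.3 and 77.1 CPM in the deprived libraries, against 20.0, 252 and 30.2 CPM in the controls, the only gene of the list at 3 times the next. RFX3, a regulator of cilium genes that neurons also use, had 153 and 131 CPM in the deprived libraries, against 91.1, 58.0 and 94.6 CPM in the controls, and was lowest in Control-317. MLF1 had 27.1 and 27.3 CPM in the deprived libraries, against 59.7, 27.0 and 51.8 CPM in the controls, and TPPP3, a tubulin-binding protein, 24.3 and 41.1 CPM against 37.9, 59.3 and 60.5 CPM. The defining ependymal genes CCDC153 and TMEM212 had at most 0.160 and 0.0957 CPM in any library, and DNAH7, DNAI2 and STOML3 were listed at 0 throughout. FOXJ1, by comparison, had 33 counts or more in every library. These absent genes were named after their values were seen, and other cilium genes were counted. RSPH1 had 2.95 and 1.23 CPM in the deprived libraries, against 8.28, 0 and 6.79 CPM in the controls. ENKUR had 2.68 and 3.14 against 9.52, 0.24 and 6.89 CPM. Both are among the 7 lowest in Control-317, where FOXJ1 was highest, while 8 of the list were highest there.

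Markers of other tissue at the ventricle were set beside these values. Over 9 genes of meninges and fibroblasts the sum was 150 and 172 CPM in the deprived libraries, against 160, 218 and 177 CPM in the controls, and 0 of 9 reached 3 times the next library in Control-317. Of these 9, 3 were highest in Control-317 and 4 were lowest there. The highest were SLC13A3, at 2.72 times the next library, SLC6A13, at 1.26 times, and COL1A2, at 1.22 times. DCN, a proteoglycan of connective tissue, was among the lowest, at 17.8 CPM in Control-317 against 25.9 to 39.7 CPM elsewhere. PLVAP, a marker of the fenestrated capillaries that the choroid plexus contains, had 4.96 and 7.23 CPM in the deprived and 9.32, 8.16 and 10.7 CPM in the control libraries. The sum over 5 endothelial markers was 156 and 174 CPM in the deprived libraries, against 232, 220 and 233 CPM in the controls. The endothelial sum of Control-317 lay above both deprived libraries and slightly below the other controls. The sum of Control-317 for meninges and fibroblasts was the highest, but that place depended on SLC13A3 alone. SLC13A3 had 8.581 and 31.94 CPM in the deprived libraries, against 12.21, 86.98 and 25.06 CPM in the controls. What these sums hold of tissue at the ventricle was not tested. Of the 10 relay neuron markers 7 were highest in Control-317, at most 2.31 times the next library, and 2 were lowest there. Their part in the pattern of the choroid plexus genes was not tested. OTX2 is also known from GABAergic neurons of the midbrain. Over 6 markers of such neurons, the sum was 19.3 and 18.8 CPM in the deprived libraries, against 19.8, 30.3 and 19.6 CPM in the controls. Of the 6, 2 (GATA3 and SOX14) were highest in Control-317, with SOX14 at 1.34 and 6.14 against 0, 9.20 and 0.861 CPM. The most abundant, TAL1 and OTX1, were highest in Control-307 and Deprivated-316. TAL1 had 8.045 and 2.05 against 12.5, 9.52 and 11.4 CPM, and OTX1 6.84 and 4.91 against 3.52, 4.08 and 3.54 CPM. The part of such neurons in the level of OTX2 was not tested.

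The genes most like TTR were found by the root mean square distance between log2 CPM centred on the mean of the 5 libraries, over all genes tested. This describes likeness over 5 libraries only, and the genes were chosen for it. Places and counts of closer genes leave out the 10 members themselves. The nearest was CP, which encodes ceruloplasmin, the copper-carrying ferroxidase, at a distance of 0.268 against a median of 2.03 over all genes. CP had 0.670 and 3.14 CPM in the deprived libraries, against 5.59, 53.1 and 6.03 CPM in the controls. CLDN2 followed at 0.390 and SLC13A4, in the fourth place, at 0.621. Among the 10 genes of the choroid plexus and ependyma, FOLR1 lay at 0.429, PRLR at 0.616 and AQP1 at 0.790, closer than all but 2, 3 and 7 other genes. SLC4A5 lay at 3.27, with 14030 genes closer, and FOXJ1 at 1.45, with 268 closer.

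RET, the receptor tyrosine kinase for factors of the GDNF family, and CFB, a complement factor, were also among the 10 nearest, with 14.4 and 9.04 CPM in Control-317 and at most 3.44 and 1.23 CPM in any other library. RAG1, RGS9BP and 3 loci named only by a number, after CLDN2 and SLC13A4, made up the rest, all below 16 CPM in every library.

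**Figure D5:**
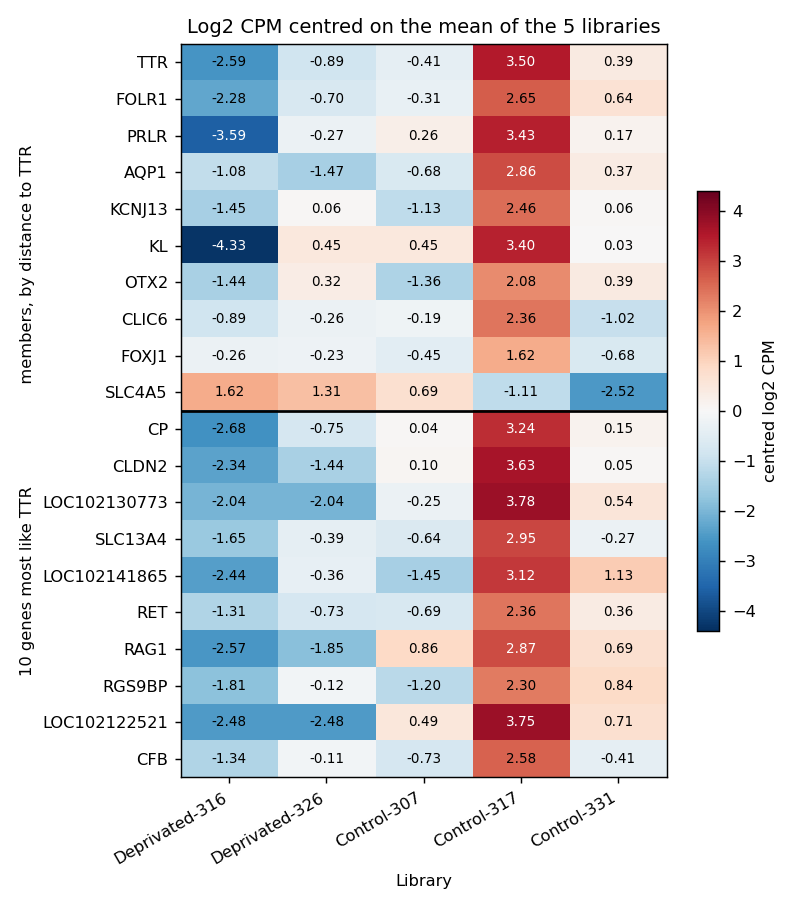
Log2 CPM centred on the mean of the 5 libraries, for the 10 genes ordered by their distance to TTR (above the line) and for the 10 other genes nearest to TTR (below it), with both deprived libraries left of the controls. TTR ranges from -2.59 in Deprivated-316 to 3.50 in Control-317, CP from -2.68 to 3.24, and SLC4A5, at 1.62 in Deprivated-316 and -1.11 in Control-317, runs opposite.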

How the data were processed

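Reads were filtered by the authors with fastp 0.18.0 and quantified with StringTie 1.3.4 on RefSeq transcripts of the Macaca_fascicularis_5.0 assembly. HISAT2 is the aligner named in the methods, while Bowtie2 2.2.8 stands in the submitters' processing notes. The deposited estimated counts and the FPKM that the authors computed cover 62655 transcripts. No coordinates are given, because the gene table at hand is of another assembly, and no sequences are shown.

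Estimated counts were rounded, summed by symbol and tested with edgeR 4.0.16 (R 4.3.3): TMM normalization, filterByExpr, quasi-likelihood test, Benjamini-Hochberg adjustment over all 14319 genes or 33469 transcripts, threshold 0.05. Standard errors were derived from the F statistic. Alternatives were DESeq2 1.42.0, limma 3.58.1 on log2 FPKM, edgeR's exact test, other size factors, filters and pseudocounts, side by title as a term, each library left out, and Control-317 exchanged with Deprivated-316. That exchange gave the group means of 310 of 310 transcripts in a table of the study, 4 of 4 from the genes described here; the labelled groups gave those of 20 and of 0. Each test was tested on simulated counts. Members and lists were chosen with earlier results of these data known. The named genes were all 10 members, up to 4 of each list by mean CPM, transcripts with at least 10% of a gene's counts in a library, and the 10 genes nearest to TTR; others were named after their values were seen. P-values measure the spread between animals, 1 library each.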

Additional observations from a re-analysis of the deposited data

How the results depend on the processing

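Over the 10 genes, 158 log2 fold changes were computed under alternatives, of which 142 kept their direction and stayed uncalled, 4 passed the threshold and 12 reversed. With Control-317 and Deprivated-316 exchanged all 10 reversed: TTR 3.00, FOLR1 2.17, AQP1 2.29, CLIC6 2.41, KL 2.94, SLC4A5 -0.15, PRLR 2.87, FOXJ1 1.48, KCNJ13 2.59 and OTX2 2, so that 1 gene was negative in place of 9. Without Control-317, CLIC6 (0.02) and FOXJ1 (0.34) reversed; leaving out single libraries, they ranged from -2.28 to 0.02 and from -1.21 to 0.34. The 4 that passed were TTR in DESeq2 (-3.66) and, with side by title as a term, TTR (-5.01), AQP1 (-4.20) and FOXJ1 (-1.91). Of the 10, DESeq2 thus called 1 and the side term 3, though that term sets the deprived libraries against Control-317 alone. Leaving out single libraries gave 0 of these genes called each time and 6 to 9 negative. Over all genes, called counts were 0 in the quasi-likelihood test, 226 in the exact test, 325 in DESeq2, 1 in limma on log2(FPKM + 1) and 767 with the side term; leaving out single libraries gave 0 to 1416, the highest without Control-317. Over transcripts, the exact test called 464 and DESeq2 1039, against 0 in the quasi-likelihood test, and 0 when any single library was left out. The cause of these differences was not tested. Depth limits FOLR1, KL, KCNJ13, CLIC6, PRLR and SLC4A5, each with under 15 counts in at least 1 library. No paired analysis was possible because the animal numbers of the groups differ.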

Other observations

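In Control-317, 51 genes reached at least 4 times the CPM of the next library. Of these 7 were among the 10 genes described above, 5 more were on the wider choroid plexus list (CLDN2, SLC13A4, WFIKKN2, TMEM72 and HTR2C), and 39 were on no list used here. Of the 39, those named here were picked after their values were seen and stand for no theme. F5, a coagulation factor, had 3.75 and 4.78 CPM in the deprived libraries, against 0, 32.2 and 6.22 CPM in the controls (Control-307, then Control-317 and Control-331). SOD3, an extracellular superoxide dismutase, had 1.48 and 2.32 CPM in the deprived libraries, against 2.38, 17.7 and 3.06 CPM in the controls. PTPN3, a tyrosine phosphatase, had 158 and 384 CPM in the deprived libraries, against 19.1, 1587 and 110 CPM in the controls. GNB1, a G protein subunit, had 46.4 and 46.8 CPM in the deprived libraries, against 74.4, 529 and 56.7 CPM in the controls.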
